A study of Rattus norvegicus with 5 samples.

Results

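The 4 Krüppel-like factors described from these rat arrays are *Klf4*, *Klf6*, *Klf9* and *Klf10*. They were taken as all probe sets to which the platform annotation gives one of these symbols alone, the older names Bteb (*Klf9*) and Copeb (*Klf6*) included, which gave 8 of 8740 probe sets and 4 of 4736 genes. A probe set is a group of short probes that reads 1 transcript, and its MAS 5.0 signal is a linear brightness with no read depth behind it. *Klf10* had 3 probe sets, *Klf4* and *Klf9* had 2 each and *Klf6* had 1. Both *Klf4* probe sets were built on the same sequence record, and so were both *Klf9* probe sets, so they are repeat readings and not independent ones. Of the 8 probe sets, 6 were among the brightest 41% by mean signal, and the 2 dim ones both belonged to *Klf10*. The 4 genes were selected on their measured signals, chosen by how these compared between GFP+ and GFP+/- cells, so their values in that contrast are given as a description without a test.

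All 3 cell populations came from primary cultures of the hypothalamus of Wistar rat embryos at day 17 of gestation, kept for 3 days in vitro. Cultures for the first 2 populations were transfected with a plasmid in which the minimal promoter of *Trh*, the gene of thyrotropin-releasing hormone, drives green fluorescent protein. GFP+ cells were those sorted as fluorescent 48 h later, and GFP+/- cells were the same kind of transfected culture run through the cell sorter without selection. NT cells were not transfected. RNA was pooled from 6 experiments for GFP+ and from 3 for each of the others, and hybridized to 2 GFP+ arrays, 2 GFP+/- arrays and 1 NT array. The labels call the paired arrays biological replicates, while the paper describes them as aliquots of 1 pooled RNA. Every SD and p-value here thus measures the spread between arrays and not between cultures. The GFP+ gate reads activity of a transfected promoter, which limits how far GFP+ cells stand for neurons with endogenous *Trh*. The brighter of 2 *Trh* probe sets gave 115 and 141 on the GFP+ arrays, 109 and 106 on the GFP+/- arrays and 96.6 on the NT array. It was below the brightest 41%. Its log2 difference was 0.24 for GFP+ against GFP+/- and 0.40 for GFP+ against NT (limma, adjusted p = 0.595). By RT-PCR, the paper reported more *Trh* mRNA in GFP+ cells than in NT or GFP+/- cells.

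Krüppel-like factors are transcription factors with zinc fingers at the carboxyl end that bind GC-rich and CACCC sequences in promoters. Some activate and others repress, and several recruit the Sin3 corepressor with its histone deacetylases. *Klf4* is known for arresting the cell cycle and for its use in reprogramming cells to pluripotency. *Klf10* is known as an early gene induced by transforming growth factor beta. *Klf6* is a widely expressed activator, and *Klf9* is induced by thyroid hormone and glucocorticoids in brain cells.

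The promoter that defined the GFP+ cells is itself a GC-rich sequence with letters of the kind this family binds. The RefSeq window of the 250 bases before the annotated start of rat *Trh* (assembly GRCr8, chr4:126301763-126302012, minus strand) is shown for that reason, 5′ to 3′, with a GC box (GGGCGG) and a CACCC box in capitals. It is the genomic reference and not the plasmid's sequence.

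Trh: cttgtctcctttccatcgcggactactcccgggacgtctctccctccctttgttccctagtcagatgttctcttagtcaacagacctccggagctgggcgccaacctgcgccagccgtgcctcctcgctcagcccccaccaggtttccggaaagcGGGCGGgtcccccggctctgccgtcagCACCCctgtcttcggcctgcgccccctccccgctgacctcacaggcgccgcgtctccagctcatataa

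The window was 65.2% G and C. The GC box lay 95 to 90 bases before the start and the CACCC box 68 to 64 bases before it, and they do not overlap. Both motifs were searched on both strands, as GGGCGG or CCGCCC and as CACCC or GGGTG. A GC box was present in 30.5% of 33469 RefSeq windows of this length, a CACCC box in 49.2% and either of them in 61.2%. A match of this kind is thus common, and it is a description and not a measured site. Separately, the paper describes work of its group in which Klf4 bound the *Trh* promoter in vitro and in vivo. For Klf10 it refers to unpublished data on such binding. Whether these letters take part in that binding was not tested here.

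Against GFP+/- cells, GFP+ cells had the highest *Klf4* and *Klf10* signals, a smaller excess of *Klf6* and no separation of *Klf9*. The ratio of averaged signals was 4.57 for *Klf4*, 2.93 for *Klf10*, 1.39 for *Klf6* and 1.02 for *Klf9*, each read from its brightest probe set. Since RNA was measured in bulk, fewer cells of a type and less RNA per cell cannot be told apart in any of these values. The plot of all probe sets by array shows the 4 patterns.

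**Figure D1:**
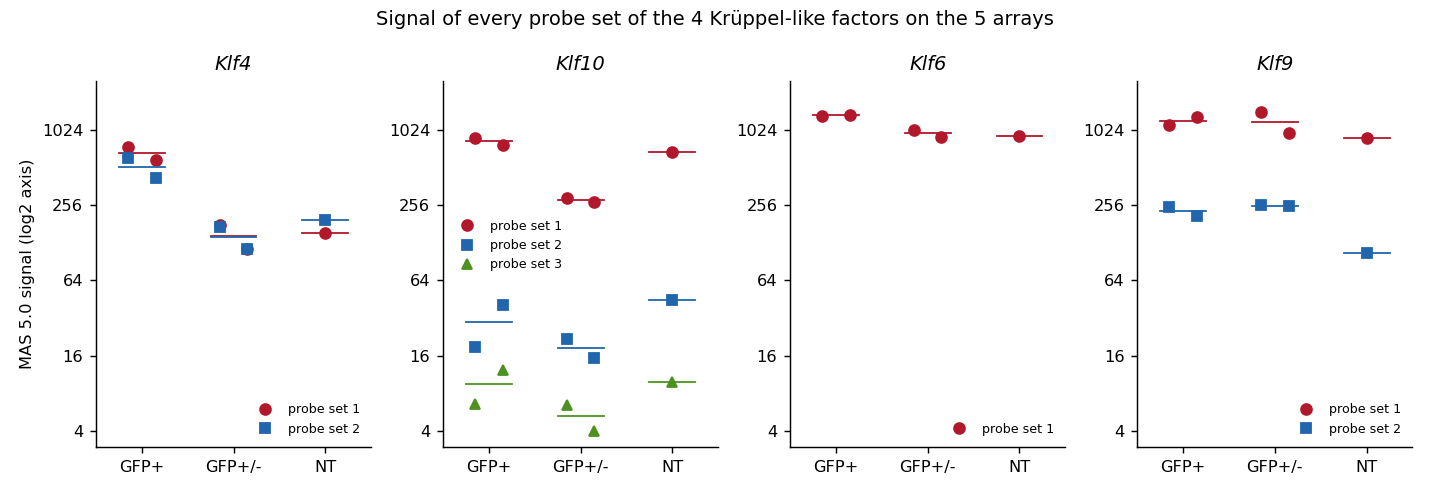
MAS 5.0 signal (vertical, log2 axis) of each probe set of *Klf4*, *Klf10*, *Klf6* and *Klf9* on the 2 GFP+, 2 GFP+/- and 1 NT arrays. Points are arrays, horizontal lines are population means, and probe sets are numbered by mean signal. The GFP+ arrays lie above the GFP+/- arrays for both *Klf4* probe sets, for the brightest *Klf10* probe set and for *Klf6*.

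*Klf4* was high in the sorted cells alone. Its brightest probe set gave 749 and 581 on the GFP+ arrays, 176 and 115 on the GFP+/- arrays and 154 on the NT array. Both GFP+ arrays stood above the other 3, and the NT array fell between the GFP+/- arrays. The GFP+ mean was 665 ± 119 and the GFP+/- mean 145 ± 43.1 (SD, n = 2 arrays each), and the lower GFP+ array was still 3.30 times the higher GFP+/- array.

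The other *Klf4* probe set read the same record and kept GFP+ highest. It gave 603 and 423 on the GFP+ arrays, 171 and 114 on the GFP+/- arrays and 194 on the NT array, here with NT above both GFP+/- arrays. Its ratio of GFP+ to GFP+/- was 3.60. The log2 difference was 1.85 with a standard error of 0.31, and that of the brightest probe set was 2.21 with a standard error of 0.29.

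*Klf10* was low in the unsorted transfected cells and higher in both other populations. Its brightest probe set gave 873 and 777 on the GFP+ arrays, 291 and 272 on the GFP+/- arrays and 675 on the NT array. The GFP+/- arrays were below the other 3, and NT lay between the populations, nearer to GFP+. The GFP+ mean was 825 ± 67.8 and the GFP+/- mean 281.8 ± 13.4 (SD, n = 2 arrays each), with a log2 difference of 1.55 (SE 0.18).

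The 2 dim *Klf10* probe sets carried little signal. The second gave 18.8 and 40.6 on the GFP+ arrays, 21.7 and 15.3 on the GFP+/- arrays and 45.1 on the NT array, so GFP+ and GFP+/- overlapped. The third gave 6.63 and 12.4 on the GFP+ arrays, 6.53 and 3.997 on the GFP+/- arrays and 9.91 on the NT array. The GFP+ arrays differed 2.16-fold for the second and 1.87-fold for the third, against 1.12-fold for the brightest. In both, GFP+/- had the lowest mean, as in the brightest, and NT had the highest.

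*Klf6* had its highest signals in GFP+, by a small margin over close arrays. It gave 1321 and 1346 on the GFP+ arrays, 1016 and 897 on the GFP+/- arrays and 916 on the NT array. The GFP+ arrays were above all others, and NT fell between the GFP+/- arrays. The GFP+ mean was 1333 ± 17.6 and the GFP+/- mean 957 ± 84.3 (SD, n = 2 arrays each), with a log2 difference of 0.48 (SE 0.16).

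*Klf9* had overlapping signals in both transfected populations and its lowest in NT. The brightest probe set gave 1113 and 1297 on the GFP+ arrays, 1409.9 and 961 on the GFP+/- arrays and 876 on the NT array. Both GFP+ arrays fell between the GFP+/- arrays, so these populations overlapped. The GFP+ mean was 1205 ± 131 and the GFP+/- mean 1185 ± 318 (SD, n = 2 arrays each). The second probe set gave 248 and 208 on the GFP+ arrays, 256 and 249.5 on the GFP+/- arrays and 107 on the NT array. Here both GFP+ arrays were just under both GFP+/- arrays and NT was lowest again. The log2 differences of GFP+ against GFP+/- had opposite signs, 0.046 (SE 0.23) for the brightest and -0.15 (SE 0.23) for the second.

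The size of these gaps can be set beside the spread between arrays of 1 population. For the brightest probe set of each gene, the GFP+ arrays differed 1.29-fold in *Klf4*, 1.12-fold in *Klf10*, 1.02-fold in *Klf6* and 1.17-fold in *Klf9*. The GFP+/- arrays differed 1.53-fold in *Klf4*, 1.07-fold in *Klf10*, 1.13-fold in *Klf6* and 1.47-fold in *Klf9*. The excess of *Klf4* and *Klf10* in GFP+ was wider than these gaps, that of *Klf6* was wider by less, and the *Klf9* difference was within them. Over all probe sets, 15.5% differed more than 2-fold between the GFP+ arrays and 13.2% between the GFP+/- arrays, and among the brightest 3.27% and 1.03% did.

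By averaged signals, 3 of the 8 probe sets were more than 2-fold higher in GFP+ than in GFP+/-, against 8.89% of all probe sets. Among the brightest it was 3 of 6, against 2.93%. The 3 were both *Klf4* probe sets and the brightest of *Klf10*, and no member was more than 2-fold lower, against 4.18% of all. Both GFP+ arrays exceeded both GFP+/- arrays in 5 of the 8, against 30.4% of all probe sets. Among the brightest it was 4 of 6, against 31.2%. The dim probe set counted in the 5 was the third of *Klf10*, where the gap was 6.63 against 6.53. The members were chosen with these values in view, so the counts describe them and say nothing further. The median log2 difference over all probe sets was 0.13, and 0.070 among the brightest.

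**Figure D2:**
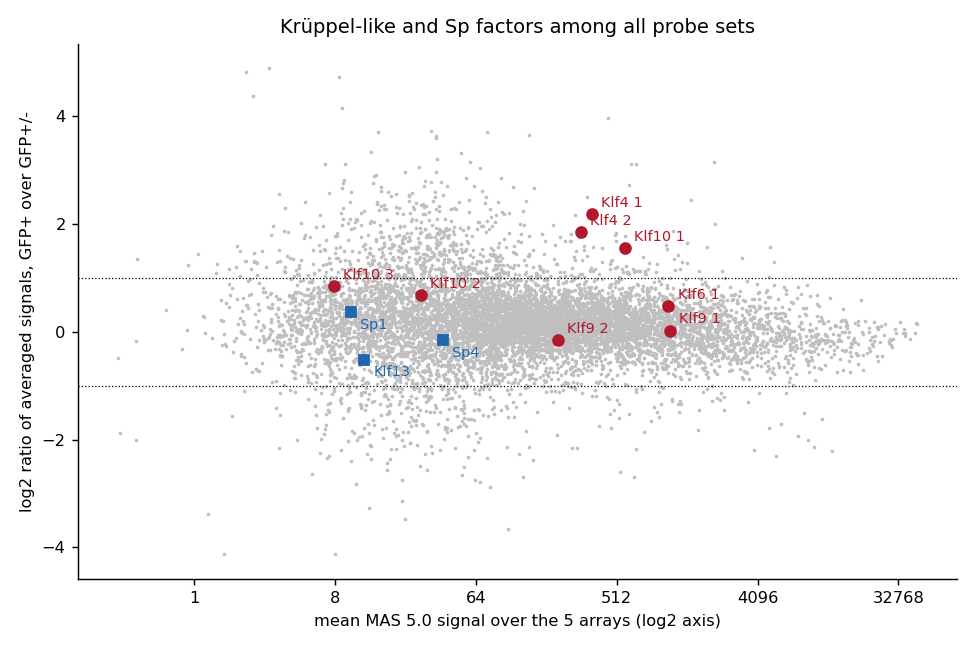
Log2 ratio of averaged signals, GFP+ over GFP+/- (vertical), against the mean MAS 5.0 signal over the 5 arrays (horizontal, log2 axis), for all 8740 probe sets (grey). Red circles are the probe sets of *Klf4*, *Klf6*, *Klf9* and *Klf10*, blue squares are *Sp1*, *Sp4* and *Klf13*, and dotted lines mark 2-fold. Both *Klf4* probe sets and the brightest *Klf10* probe set lie above the upper line, and the 2 other *Klf10* probe sets lie at low signals where the scatter is wide.

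The NT array allows a test across all probe sets, with limma on log2 signals and a Benjamini-Hochberg adjustment that took in all 8740. Both NT comparisons share their other arrays with the contrast that chose the genes, so a gene picked for being high in GFP+ also tends to be high there against NT, and one picked for being low in GFP+/- also tends to be low there against NT. The p-values of the members in both comparisons are therefore not independent of the choice. NT had 1 array and is assumed to vary like the others. NT cells also differed from both in not being transfected, and a passage through the sorter is given only for the transfected cells, so transfection and sorting cannot be told apart in these comparisons.

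*Klf4* passed the test in GFP+ against NT, and no other member did. The mean signal of its brightest probe set was 4.32 times that of NT, a log2 difference of 2.10 (SE 0.36; limma, adjusted p = 0.0275). Without 1 array, in turn, this difference ran from 1.91 to 2.28 and the adjusted p from 0.0736 to 0.130, so the call was lost whichever of the GFP+ or GFP+/- arrays was left out. It was also lost with a prior variance that ignores signal level (limma, adjusted p = 0.102). The second *Klf4* probe set had a log2 difference of 1.38 (SE 0.38; limma, adjusted p = 0.0861), 2.65 times NT.

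*Klf6* and *Klf9* were also above NT on both GFP+ arrays, without passing. *Klf6* had a log2 difference of 0.54 (SE 0.20; limma, adjusted p = 0.165). The brightest *Klf9* probe set gave 0.46 (SE 0.29; limma, adjusted p = 0.416) and the second gave 1.09 (SE 0.28; limma, adjusted p = 0.0767), so the probe sets of this gene differed in size though not in sign. *Klf10* was 1.22 times NT in its brightest probe set, a log2 difference of 0.29 (SE 0.22; limma, adjusted p = 0.505). The dim *Klf10* probe sets had log2 differences of -0.71 and -0.13.

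In GFP+ against NT, 1 of the 8 probe sets was called higher and 0 lower, against 4.38% and 4.06% of all probe sets. At an unadjusted p under 0.05, limma also gave the second *Klf9* and *Klf4* probe sets and *Klf6* as higher, and none as lower. The share of all probe sets at that looser limit was not counted, so this is a description only. More than 2-fold by averaged signals, 3 of the 8 were higher and 0 lower, against 14.5% and 12.3% of all. The 3 were both *Klf4* probe sets and the second of *Klf9*. The median log2 difference over all probe sets was 0.056.

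*Klf10* passed the test in GFP+/- against NT, in the lower direction, and no other member did. Its brightest probe set was 2.39 times as high in NT, a log2 difference of -1.26 (SE 0.22; limma, adjusted p = 0.0276). With 1 array left out in turn, it ran from -1.31 to -1.21 with adjusted p from 0.0566 to 0.144, so this call too was lost each time. It was also lost with a prior variance that ignores signal level (limma, adjusted p = 0.117) and with the mean of the 3 probe sets (limma, adjusted p = 0.273). The second *Klf10* probe set gave -1.30 (SE 0.71; limma, adjusted p = 0.337) and the third -0.96 (SE 0.69; limma, adjusted p = 0.482), with the same sign.

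*Klf9* had the opposite direction in this comparison. Its second probe set was 2.37 times NT, a log2 difference of 1.24 (SE 0.28; limma, adjusted p = 0.0544), and its brightest gave 0.41 (SE 0.29; limma, adjusted p = 0.465). The brightest *Klf4* probe set gave -0.12 (SE 0.36; limma, adjusted p = 0.897) and *Klf6* gave 0.061 (SE 0.20; limma, adjusted p = 0.903), and in both the NT signal fell between the GFP+/- arrays. The second *Klf4* probe set, where NT lay above both GFP+/- arrays, gave -0.47 (SE 0.38; limma, adjusted p = 0.531).

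In GFP+/- against NT, 0 of the 8 probe sets were called higher and 1 lower, against 4.2% and 5.03% of all probe sets. At an unadjusted p under 0.05, limma also gave the second *Klf9* probe set as higher, and here too the share of all probe sets was not counted. More than 2-fold by averaged signals, 1 of the 8 was higher, the second *Klf9* probe set, and 2 were lower, both of *Klf10*, against 12.1% and 15.2% of all. The median log2 difference over all probe sets was -0.094.

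**Figure D3:**
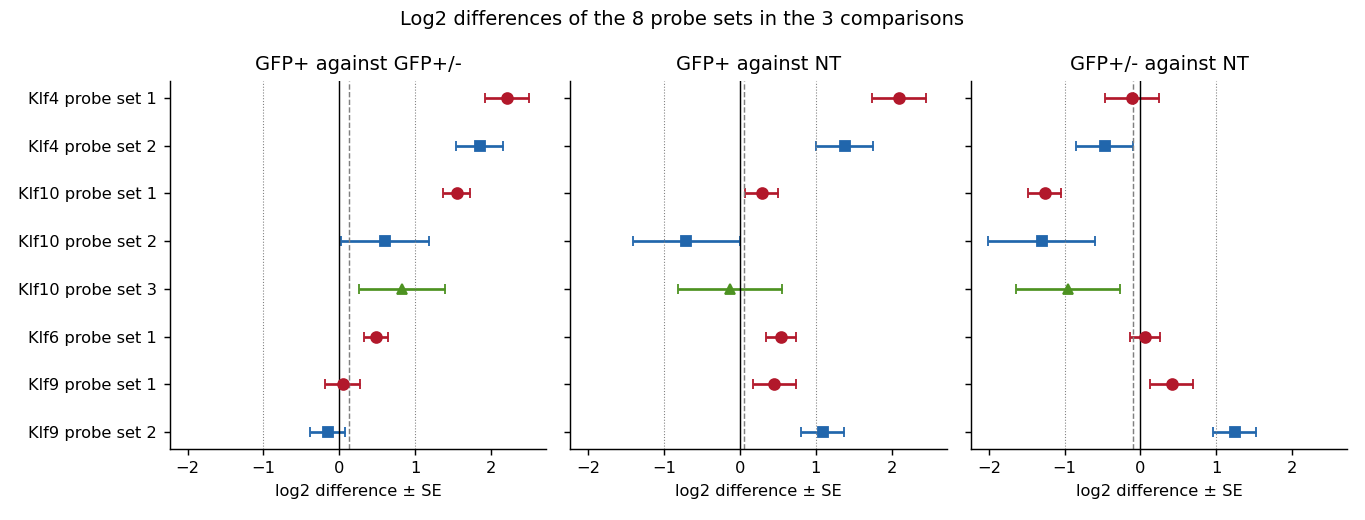
Log2 difference (horizontal) of each of the 8 probe sets for the 2 comparisons of GFP+ cells, against GFP+/- and against NT, and for GFP+/- cells against NT, with the standard error of the limma fit as bars. Dotted lines mark 2-fold and the dashed line the median of all probe sets. *Klf4* is highest in both GFP+ comparisons, and the 3 *Klf10* probe sets lie between -1.30 and -0.96 in GFP+/- against NT.

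The 4 genes thus differed in the order of the populations. *Klf4* ran from GFP+ down to NT and GFP+/-, where the last pair overlapped in the brightest probe set. *Klf10* ran from GFP+ to NT to GFP+/- in its brightest probe set, where the difference of GFP+ and NT did not pass the test. In its dim probe sets NT had the highest mean. *Klf6* ran from GFP+ to GFP+/- and NT, with the last pair overlapping. *Klf9* ran from GFP+ and GFP+/-, which overlapped in the brightest probe set and in the second had GFP+/- just above, to NT.

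Markers of other cell types and the control ratios of the arrays differed between these populations too. Each marker list is given by its signals summed over the genes, 1 probe set per gene. For fibroblast markers, 9 of 10 with a probe set, the sum was 13963 and 20146 on the GFP+ arrays, 42523 and 41874 on the GFP+/- arrays and 18458 on the NT array. *Ttr*, the choroid plexus marker, gave 2961 and 5060, then 18147 and 17266, and 3587 in NT. These sums were highest in the GFP+/- arrays, where *Klf10* was lowest, and their part in the *Klf10* values was not tested.

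For neuron markers, 7 of 9 with a probe set, the sum was 26165 and 22150 on the GFP+ arrays, 17293 and 18699 on the GFP+/- arrays and 32932 on the NT array. This sum was higher in GFP+ than in GFP+/-, with a median log2 difference of 0.51 over the 7 genes, and highest in NT, although *Mapt*, the brightest of them, was highest in GFP+ at 12752 and 10426 against 10041 in NT. Microglial markers, 6 of 7, summed to 617 and 412 on the GFP+ arrays, 307 and 271 on the GFP+/- arrays and 491 on the NT array. None was among the brightest probe sets. Of the 6, 3 were more than 2-fold higher in GFP+ than in GFP+/-, *Csf1r*, *C1qb* and *Itgam*, against 8.89% of all probe sets. *C1qb* gave 90.9 on GFP+ array 1 and 10.2 on GFP+ array 2, so its ratio rests on the first. *Itgam* was very dim, at 2.39 and 1.58 on the GFP+/- arrays. *Ptprc*, *Cd74* and *Aif1* had log2 differences of 0.018, 0.29 and -0.47, and the list median was 0.76. The neuron and microglial sums were lowest in GFP+/-, as *Klf10* was, and both were higher in GFP+ than in GFP+/-, as *Klf4* was, and their part in these values was not tested. Astrocyte markers, 7 of 8, ranged from 20763 to 30266, and *Gfap* had no probe set under its symbol. Oligodendrocyte markers, 4 of 5, ranged from 671 to 1221 and hypothalamic peptide genes, 10 of 10, from 3383 to 3796. Endothelial and mural markers, 7 of 9, gave 2151 and 3933 on the GFP+ arrays, 9178 and 11420 on the GFP+/- arrays and 1765 on the NT array. Most of the GFP+/- sum came from *Acta2*, at 6561 and 9059, and *Tagln*, at 2136 and 1835. *Flt1*, *Pdgfrb*, *Pecam1*, *Kdr* and *Vwf* had log2 differences of 0.12, 0.089, 0.031, 0.11 and 0.23 in GFP+ against GFP+/-, and the list median was 0.089. *Pecam1*, *Kdr* and *Vwf* were all below the brightest 41%. Erythroid markers, 2 of 4, gave 3502 and 3711, then 8668 and 5991, and 380 in NT.

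The control ratio of 3′ to 5′ signal, which rises as RNA or labelling is less complete, was 14.6 and 17.6 for *Gapdh* on the GFP+ arrays, 12.7 and 14.2 on the GFP+/- arrays and 5.45 on the NT array. NT thus stood apart from the other arrays in this ratio, and for actin it ran from 14.4 to 31.4 in the others against 10.9 in NT. Its part in the NT comparisons of *Klf4*, *Klf9* and *Klf10* was not tested.

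Among close relatives, few other members of the family could be read. Of 22 other Krüppel-like and Sp factors listed, 3 had a probe set under a symbol of their own, and all were dim. *Klf13* gave 15.5 and 6.39 on the GFP+ arrays, 15.2 and 16.3 on the GFP+/- arrays and 8.04 on the NT array. *Sp1*, a factor that occupies GC boxes in many promoters, gave 6.73 and 15.9, then 9.51 and 8.11, and 10.2 in NT. *Sp4*, a relative of Sp1 found mainly in neurons, gave 40.8 and 25.4, then 24.3 and 49.6, and 55.7 in NT. GFP+ and GFP+/- overlapped in all 3, and none was called or passed 2-fold in any of the 3 comparisons. Of all probe sets, 4.38% were called higher and 4.06% lower in GFP+ against NT, and 4.2% and 5.03% in GFP+/- against NT. In GFP+ against GFP+/-, 8.89% were more than 2-fold higher and 4.18% lower, and both GFP+ arrays were above in 30.4%. With 3 genes, the counts are too small to set apart from such shares.

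The early response genes, a class of rapidly induced genes to which *Klf4* and *Klf10* are often counted, had a median above zero in GFP+ against NT. Of 27 symbols listed, with *Cyr61* an older name of *Ccn1*, 22 had a probe set. Of these 22, 8 passed as higher and 0 as lower against 4.38% and 4.06% of all probe sets, with a median log2 difference of 1.19 against 0.056. Against GFP+/- cells, 5 of the 22 were more than 2-fold higher in GFP+, namely *Fos*, *Atf3*, *Nr4a3*, *Egr4* and *Fosl1*, and *Gadd45a* was lower. Of all probe sets, 8.89% were higher and 4.18% lower, and the list median was 0.19 against 0.13. *Fosl1* gave 205 on 1 GFP+ array and 23.4 on the other, so its ratio rests on 1 array. In GFP+/- against NT, *Egr1*, *Fos* and *Junb* passed as higher and 0 as lower, against 4.2% and 5.03% of all probe sets. The median there was 0.81 against -0.094. *Klf10* thus went down in a comparison where the median of this list was above zero.

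The brightest of these genes did not share 1 pattern. *Fos*, a subunit of the AP-1 factor, gave 2687 and 2227 on the GFP+ arrays, 1093 and 944 on the GFP+/- arrays and 287 on the NT array, and passed in GFP+ against NT with a log2 difference of 3.09 (limma, adjusted p = 0.00808) and in GFP+/- against NT with 1.82 (limma, adjusted p = 0.0149). *Jun*, its partner, gave 1799 and 1726, then 1511 and 1179.6, and 753 in NT, with 1.23 in GFP+ against NT (limma, adjusted p = 0.0341). *Btg1*, an antiproliferative gene, gave 2108 and 1803, then 2056 and 1699, and 3209 in NT, with -0.72 in GFP+ against NT (limma, adjusted p = 0.119). *Fos* resembled *Klf4* in its excess in GFP+ over both other populations, and unlike *Klf4* was also called higher in GFP+/- than in NT.

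Other zinc finger factors of GC-rich sites were read for all 5 genes listed, the Egr genes and *Wt1*. The Egr genes also belong to the early response list. *Egr1*, an early gene of neuronal activity and growth factor signals, gave 5934 and 9837 on the GFP+ arrays, 6615 and 7042 on the GFP+/- arrays and 2266 on the NT array. It passed as higher than NT in GFP+ (log2 difference 1.75; limma, adjusted p = 0.0374) and in GFP+/- (1.59; limma, adjusted p = 0.0440), so its level was high in both transfected populations and its GFP+ and GFP+/- arrays overlapped. *Egr2* gave log2 differences of 1.34 and 1.40 in the same comparisons without passing. *Egr4* and *Wt1* were below the brightest 41%, with log2 differences of 1.18 and 0.89 in GFP+ against GFP+/-. *Egr1* was the only one of the 5 called in either NT comparison. Of all probe sets, 4.38% were called higher and 4.06% lower in GFP+ against NT, and 4.2% and 5.03% in GFP+/- against NT.

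Of 12 cofactors through which these factors act, 3 had a probe set. *Hdac2*, a histone deacetylase of the Sin3 complex, gave 962 and 1099.6 on the GFP+ arrays, 959 and 1274 on the GFP+/- arrays and 3084 on the NT array, and was lower than NT in GFP+ (log2 difference -1.58; limma, adjusted p = 0.0231) and in GFP+/- (-1.48; limma, adjusted p = 0.0262). *Ctbp1*, a corepressor, ranged from 3720.5 to 4424 over the arrays. *Sin3b*, a scaffold of the Sin3 complex, gave 1642 and 1318 on the GFP+ arrays, 1676 and 1462 on the GFP+/- arrays and 891 on the NT array, with 0.72 in GFP+ against NT (limma, adjusted p = 0.121). None of the 3 passed 2-fold between GFP+ and GFP+/-, against 8.89% higher and 4.18% lower of all probe sets, and the median there was -0.090.

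For the signalling pathways known to induce *Klf10* and *Klf9*, the counts are small and lie near the shares of all probe sets. Of 18 genes of TGF-beta signalling, 14 had a probe set, and 0 were called in GFP+ against NT or in GFP+/- against NT by limma, against 4.38% higher and 4.06% lower, and 4.2% higher and 5.03% lower, of all probe sets, with medians of 0.11 and -0.053. None passed 2-fold in GFP+ against GFP+/-, against 8.89% higher and 4.18% lower of all, and the median there was 0.16. The brightest were *Acvr2b*, an activin receptor, with log2 differences of 0.34, 0.97 and 0.63 for GFP+ over GFP+/-, GFP+ over NT and GFP+/- over NT in turn, and *Smad2*, a signal carrier, with -0.27, -0.53 and -0.27. *Tgfb3*, a ligand, gave -0.33, 0.65 and 0.97, and *Smad4*, the partner of the receptor-activated Smads, gave -0.13, -0.23 and -0.097.

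All 7 thyroid hormone and corticosteroid receptor genes listed had a probe set, and 0 were called in either NT comparison by limma or passed 2-fold between GFP+ and GFP+/-. With 7 genes, these counts lie near the same shares of all probe sets. *Thra*, a receptor for thyroid hormone, gave 3197 and 3694 on the GFP+ arrays, 4136 and 3333 on the GFP+/- arrays and 2909 on the NT array. Like *Klf9*, it overlapped between the transfected populations and was lowest in NT, with a log2 difference of 0.24 in GFP+ against NT (limma, adjusted p = 0.627). *Rxrg*, *Rxrb* and *Rxra*, the partner receptors, gave 0.084, 0.65 and -0.099 in GFP+ against GFP+/-. The list's medians were -0.099, 0.24 and -0.16 in the 3 comparisons.

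Of 24 genes reported as targets of Krüppel-like factors, 20 had a probe set. The list includes *Trh*, which the paper describes as regulated by *Klf4* and *Klf10* in hypothalamic cells. More than 2-fold, 1 was higher in GFP+ than in GFP+/- and 5 lower, against 8.89% and 4.18% of all probe sets, with a median of -0.024. The 5 were *Col1a1*, *Acta2*, *Tagln*, *Mmp9* and *Nos2*, of which the first 3 are also on the fibroblast or mural marker lists. *Nos2* gave 45.3 on 1 GFP+/- array and 357 on the other, so its ratio rests on 1 array. *Col1a1*, a collagen, stood at 2181 and 4819 in GFP+ against 13508 and 13098 in GFP+/-, and *Acta2*, smooth muscle actin, stood at 1053 and 2375 against 6561 and 9059. The fibroblast sum moved the same way, and its part in these values was not tested.

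Against NT, 3 of the 20 were called higher in GFP+ and 4 in GFP+/-, against 4.38% and 4.2% of all probe sets, and 0 were lower in either, against 4.06% and 5.03%. They were *Odc1*, *Mmp9* and *Cdkn1a* in GFP+ and *Acta2*, *Tagln*, *Mmp9* and *Cdkn1b* in GFP+/-. *Odc1*, an enzyme of polyamine synthesis, gave 4577 and 4284 on the GFP+ arrays, 3977 and 3981 on the GFP+/- arrays and 2187 on the NT array, with a log2 difference of 1.02 in GFP+ against NT (limma, adjusted p = 0.0379). *Ccnb1*, a cyclin of mitosis, gave 908 and 2537 in GFP+ and thus had no steady level in that population. The gene of this list more than 2-fold higher in GFP+ than in GFP+/- was *Cdkn1a*, the p21 inhibitor of the cell cycle and a known target of *Klf4*. It was chosen for naming after its values were seen, at 545 and 581 on the GFP+ arrays, 297 and 196 on the GFP+/- arrays and 137 on the NT array.

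**Figure D4:**
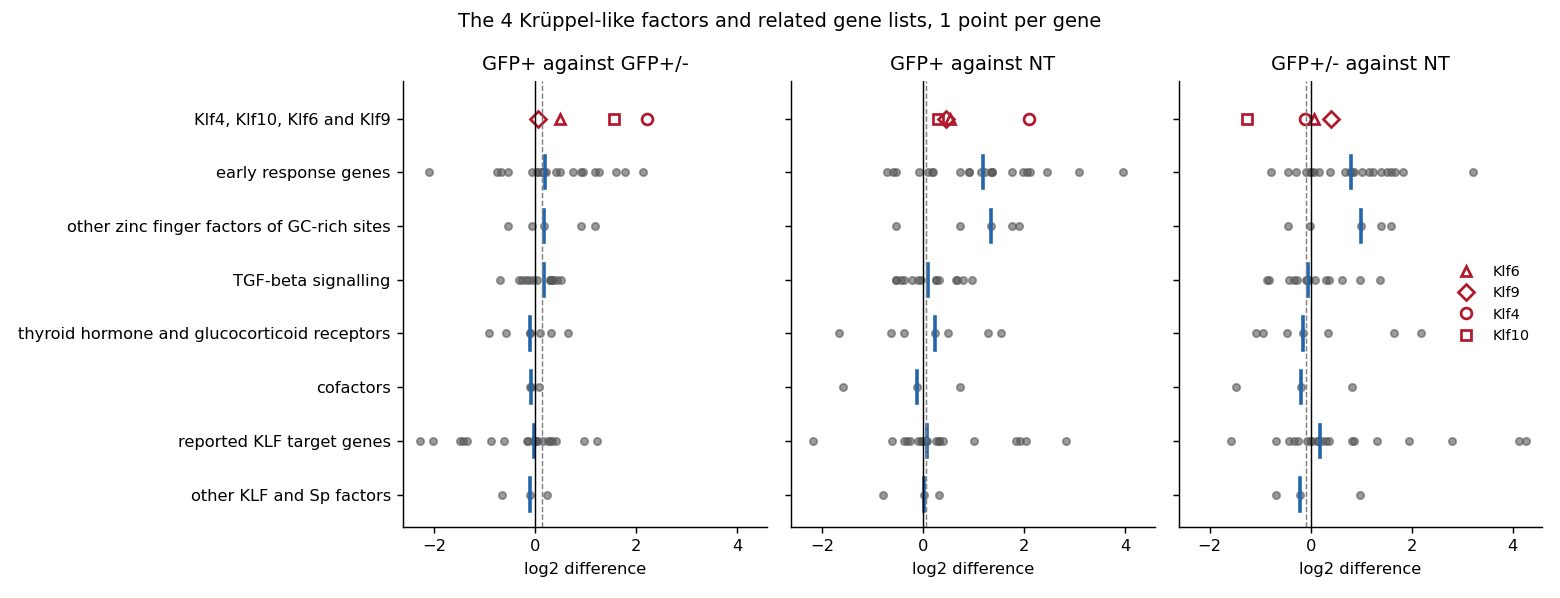
Log2 difference (horizontal) of the 4 Krüppel-like factors (red symbols) and of genes of 7 related lists (grey points, 1 per gene, each read from its brightest probe set) in the 3 comparisons. Blue bars are list medians and the dashed line is the median of all probe sets. The early response genes have medians of 1.19 and 0.81 against NT, and *Klf10* lies at -1.26 in GFP+/- against NT, below all 22 of them.

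The genes with the most similar patterns over the 5 arrays were found by the root mean square distance between centred log2 signals, over 2945 probe sets of 2330 genes among the brightest. For *Klf4* they were *Ddit3*, a factor of the integrated stress response, at 0.31, *Txnip*, an inhibitor of thioredoxin, at 0.32, and *Atf3*, a stress-induced factor, and *Nptx1*, a neuronal pentraxin, both at 0.42. *Ddit3* gave 1331 and 751 on the GFP+ arrays, 369 and 237 on the GFP+/- arrays and 199.7 on the NT array. *Txnip* gave 1287 and 1219, then 218 and 159, and 179 in NT, so that, as for *Klf4*, NT fell between the GFP+/- arrays.

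For *Klf10* they were *Chka*, a choline kinase, at 0.13, *Cacnb2*, a calcium channel subunit, at 0.18, *Id2*, an inhibitor of bHLH factors, at 0.20 and *Aldh1l1*, a folate enzyme of astrocytes, at 0.22. *Chka* gave 517 and 381 on the GFP+ arrays, 183 and 153 on the GFP+/- arrays and 417 on the NT array, and *Id2* gave 3569 and 2122, then 1046 and 862, and 2142 in NT. As for *Klf10*, both were lowest in GFP+/- and NT was nearer to GFP+.

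*Klf6* had closer matches, *Fntb* at 0.037, *Mtmr10* at 0.052, *Sart1* at 0.055 and *A2m* at 0.061, and so did *Klf9*, with *Coro1b* at 0.055, *Myl6b* at 0.065, *Natd1* at 0.070 and *Nedd8* at 0.078. Small distances are common where all 5 arrays are close. Among the members, *Klf6* and *Klf9* were 0.24 apart, with 491 of 2330 genes nearer to *Klf6* than *Klf9* was. *Klf4* and *Klf10* were 0.68 apart, with 54 of 2330 genes nearer to *Klf4* than *Klf10* was. *Klf10* was closer to *Klf6*, at 0.58, with 1853 of 2330 genes nearer to *Klf6* than *Klf10* was. Each count was taken from the side of 1 gene of the pair, so a small count does not by itself mean a close pair. The arrays share pools, and 5 points set these distances, so they describe the likeness of profiles and were not tested.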

How the data were processed

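RNA of GFP+, GFP+/- and NT cells had been labelled and hybridized to Affymetrix rat expression arrays, and the authors deposited 1 MAS 5.0 signal intensity per probe set and array, scaled by 1 factor per array (MAS5 in the submitters' processing notes). The methods name another scaling target than the trimmed mean of 501 found in the files (2% cut from either end), which affects no ratio. Of 8799 probe sets, 59 controls were left out. Signals under 1 were set to 1 before log2. Limma 3.58.1 (R 4.3.3) was fitted to all 5 arrays with 1 mean per population, an intensity trend and 2 residual degrees of freedom, and p-values were adjusted over 8740 probe sets at 0.05. The steps were tested on simulated data. Tables and plots used Python 3.11.15.

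The 4 genes and all gene lists were chosen with earlier results of these data known. Named genes were every probe set of the 4 genes, other family members with a probe set, up to 4 genes of each list by mean signal, the 4 nearest patterns and *Trh*; other genes of the lists, such as *Egr4*, *Wt1*, *Junb*, *Cdkn1a* and *Vwf*, were named after their values were seen. Promoter windows of *Trh*, *Klf6* and *Klf9* were read from RefSeq (GRCr8), *Klf4* and *Klf10* were not used here. The array number limits precision. Alternatives were other scalings, an offset of 16, the brightest 41%, a prior without a trend, averaged signals or probe sets, a replicate block and leaving out arrays.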

Additional observations from a re-analysis of the deposited data

How the results depend on the processing

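The count of the 4 genes past 2-fold by averaged signals, 2 in GFP+ against GFP+/- (*Klf4* and *Klf10*), 1 in GFP+ against NT (*Klf4*) and 1 in GFP+/- against NT (*Klf10*), was the same with both other scalings, with 16 added to each signal and with each GFP+ or GFP+/- array left out. With the mean of its probe sets, *Klf10* was 0.99 on the log2 scale in GFP+ against GFP+/-, just under 2-fold. Leaving out 1 array in turn left 1 residual degree of freedom and gave, for GFP+ against GFP+/-, 1.91 to 2.52 in *Klf4*, 1.46 to 1.63 in *Klf10*, 0.39 to 0.57 in *Klf6* and -0.23 to 0.32 in *Klf9*. For GFP+ against NT it gave 1.91 to 2.28 in *Klf4*, whose call was lost each time. For GFP+/- against NT it gave -1.31 to -1.21 in *Klf10*, whose call was also lost, -0.42 to 0.19 in *Klf4*, above zero without GFP+/- array 2 (0.19), and -0.030 to 0.15 in *Klf6*, below zero without GFP+/- array 1 (-0.030). Calls over all probe sets then fell from 738 to 1 in GFP+ against NT.

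With a prior without a trend, *Klf4* in GFP+ against NT (2.10; limma, adjusted p = 0.102) and *Klf10* in GFP+/- against NT (-1.26; limma, adjusted p = 0.117) lost their calls, as calls over all probe sets fell from 738 and 807 to 2 each. Among the brightest probe sets alone, there were 1133 and 1162. With the mean over a gene's probe sets, which brings in the dim ones, *Klf10* was -0.18 in GFP+ against NT, with the sign turned, and -1.17 in GFP+/- against NT (limma, adjusted p = 0.273), where the call was lost. Scaling to equal medians gave 0.32 for *Klf6* and 1.39 for *Klf10* in GFP+ against GFP+/-. The sign of *Klf9* in that contrast turned with quantile normalization (-0.016), equal medians (-0.11), the mean of its probe sets (-0.053) and without GFP+ array 2 (-0.065) or GFP+/- array 2 (-0.23).

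The labels say nothing of what the array numbers share. The deviations of same-numbered GFP+ and GFP+/- arrays correlated at 0.063, or at 0.20 with the brightest probe sets alone, and with 2 numbers this does not settle whether they pair. With the replicate number as a block, the differences of GFP+ against GFP+/- keep their values, 2.21 for *Klf4*, 1.55 for *Klf10*, 0.48 for *Klf6* and 0.046 for *Klf9*, and calls over all probe sets went from 0 to 2.

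Of the 4 genes of most similar pattern, Pearson correlation kept 2 for *Klf6*, 1 each for *Klf9* and *Klf4* and 0 for *Klf10*. Taking all single-gene probe sets kept 2 for *Klf6* and *Klf9*, 1 for *Klf10* and 0 for *Klf4*. Quantile normalization kept 1 for *Klf6*. The cause of these changes was not tested.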
